A study of Caenorhabditis elegans with 27 samples.

Results

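How RNAi of cbp-1 and of cco-1 combine in Caenorhabditis elegans was measured as a difference of differences over 4 groups of 3 RNA-seq libraries, 12 of the 27 libraries in the series. For each gene the effect of adding the cbp-1 clone to cco-1 RNAi was compared with the effect of the cbp-1 clone against empty vector. A value of 0 on the log2 scale means that the mixture lay at the sum of the single effects, a positive value that it lay above that sum, and a negative value that it lay below. Of 16435 genes tested, 4088 (24.9%) had an interaction at an adjusted p below 0.05, of which 1582 (9.63% of genes tested) were positive and 2506 (15.2%) negative. These calls came from edgeR's quasi-likelihood test with Benjamini-Hochberg adjustment over all genes, which also gave the adjusted p-values and standard errors (SE) below.

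All worms were of the N2 background and, per the series design, carried an hsp-6::GFP reporter. All were fed bacteria of the HT115 strain from the egg at 20 °C and collected at day 2. The developmental stage at collection was not established here. The control group received empty vector bacteria (ev). The cco-1 group received 50% cco-1 and 50% empty vector bacteria. The cbp-1 group received the cbp-1 clone in a share that the labels do not give. The cco-1 + cbp-1 mixture held 50% cco-1, 25% cbp-1 and 25% empty vector bacteria. A different share of the cbp-1 clone and a different background can therefore not be told apart in any interaction below. The labels do not name separate cultures, so p-values reflect how much these libraries vary, and that variation may be technical only.

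The gene cco-1 (current symbol cox-5B) codes for part of complex IV (cytochrome c oxidase) of the respiratory chain. Its knockdown in larvae is a standard way of inducing the mitochondrial unfolded protein response, in which nuclear genes for mitochondrial chaperones such as hsp-6 are transcribed more. The gene cbp-1 encodes the worm homolog of CBP/p300, a histone acetyltransferase that acts as a transcriptional coactivator. Feeding RNAi with a mixture of clones lowers the dose of each double-stranded RNA, and for this reason empty vector bacteria are used to fill up a mixture.

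The 12 libraries held between 25000342 and 30938572 counts in genes (median 27796478). The common biological coefficient of variation was 4.18%, so that small differences reached the threshold. Libraries fell into 2 sets on an axis of 458 genes that separates the first atfs-1 library of the series from its own replicates: ev and cbp-1 libraries scored 0.543 to 0.657, and cco-1 and mixture libraries -0.259 to -0.172. Within these 12 libraries the set and the presence of cco-1 RNAi cannot be told apart. Each of the 2 differences that make up the interaction lies within a set, whereas every cco-1 effect against ev crosses from one set to the other. Reads mapped to several places made up 14.7 to 14.9% of ev libraries, 7.93 to 7.98% of cbp-1 libraries, 8 to 8.3% of cco-1 libraries and 7.21 to 7.26% of mixture libraries; their part in the results was not tested.

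The 2 targeted genes were close to the sum of their single effects. Levels are given in CPM, counts scaled to an equal library size; those of cco-1 were 292, 308 and 306 in ev, 170, 167 and 171 under cco-1 RNAi, 222, 218 and 226 under cbp-1 RNAi, and 105, 125 and 116 in the mixture. It was lowest in the mixture, with no overlap between groups. Its interaction was -0.11 ± 0.17 (SE, adjusted p = 0.71). The fall of cco-1 under its own RNAi, -0.83 ± 0.12, dropped to -0.16 (adjusted p = 0.149) in a fit with a term for the library set, a term that rests on the single atfs-1 library. For cbp-1 the levels were 272, 277 and 257 CPM in ev, 207, 211 and 207 under cbp-1 RNAi, 317, 323 and 334 under cco-1 RNAi, and 275, 277 and 274 in the mixture. The mixture libraries thus stood at the level of ev for cbp-1 messenger RNA and below the cco-1 group. The log2 change from adding the clone was -0.24 ± 0.06 on cco-1 RNAi and -0.37 ± 0.07 against ev, and the interaction was 0.13 ± 0.09 (adjusted p = 0.344). It was called with the library-set term (adjusted p = 0.0117) and in a fit of the 12 libraries alone (adjusted p = 0.00242). The gene shares exon bases with R10E11.13 on its strand.

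The effect of the cbp-1 clone kept its direction for most responding genes and was smaller on cco-1 RNAi. Across the 16435 genes the log2 effect in the mixture regressed on the effect alone with a slope of 0.673 (Pearson's r = 0.815), and the median size of the effect was 0.31 alone and 0.222 on cco-1 RNAi. These 2 effects share no libraries, but genes are not independent replicates, and error in the effect alone lowers the slope. The flattening was not particular to cco-1 RNAi. For cbp-1 added to mrps-5 RNAi, the other mitochondrial arm described below, the slope was 0.679 (r = 0.828) and the median size 0.203. Both slopes use the same cbp-1 and ev libraries. Against ev, 9646 genes (58.7% of genes tested) differed with cbp-1 RNAi alone and 7449 (45.3%) with cco-1 RNAi alone. The mixture differed from cco-1 in 7761 (47.2%), from cbp-1 in 7832 (47.7%) and from ev in 9863 (60%). With the library-set term, 2691 genes differed between cco-1 and ev, 2065 between the mixture and cbp-1, and 5948 between the mixture and ev. Of the 4969 genes (30.2%) that rose with cbp-1 RNAi alone, 2700 (54.3%) also rose in the mixture against cco-1, which is 75% of the 3602 (21.9%) that rose there. Of the 4677 (28.5%) that fell alone, 3036 (64.9%) also fell, which is 73% of 4159 (25.3%). For cco-1 alone 3795 genes (23.1%) rose and 3654 (22.2%) fell, or 1133 and 1558 with the library-set term. Counts of list members that rose or fell with cco-1 below are from the fit without that term. Seen from the other clone, the cco-1 effect in cbp-1 worms regressed on the cco-1 effect alone with a slope of 0.318 (r = 0.39), a pair of effects that cross the library sets in both cases.

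**Figure D1:**
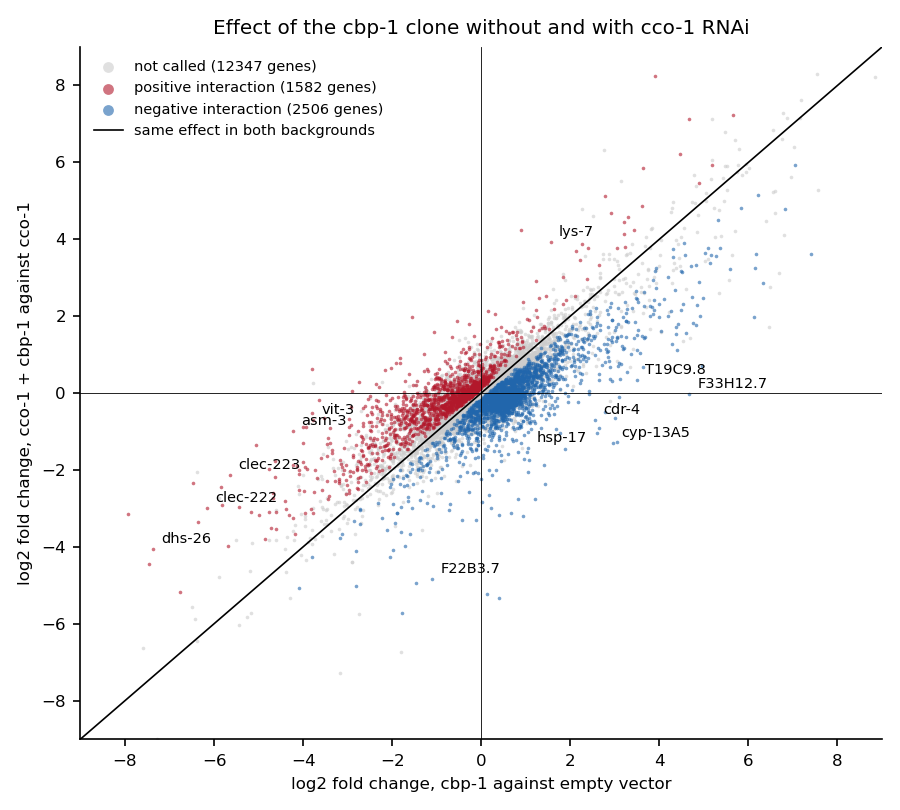
Each point is a gene, with the log2 fold change of cbp-1 against empty vector on the x axis and of cco-1 + cbp-1 against cco-1 on the y axis. The 1582 genes with a positive interaction lie above the line of equal effects and the 2506 with a negative interaction below it, and the cloud is flatter than the line (slope 0.673).

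Most interactions were attenuations of a cbp-1 effect. Of the 4088 genes, 1438 (35.2%) had a cbp-1 effect that was called alone and not in the mixture, and 1224 (29.9%) had effects of the same sign that were smaller in the mixture. In 488 genes (11.9%) the cbp-1 effect was called in both backgrounds with opposite signs, and in 390 of them it was a rise alone and a fall in the mixture. A larger effect of the same sign in the mixture was found in 394 genes (9.64%), and an effect called in the mixture and not alone in 478 (11.7%). The other 66 genes (1.61%) were called in neither background. The median size of the interaction among called genes was 0.64 on the log2 scale. Of the 4088 genes, 912 (5.55% of genes tested) differed from the sum by at least 1, with 346 positive (2.11%) and 566 negative (3.44%). The split of signs depended on the fit: 38.7% of calls were positive here, and 50% (2665 of 5326) when the 12 libraries were fitted without the others.

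**Figure D2:**
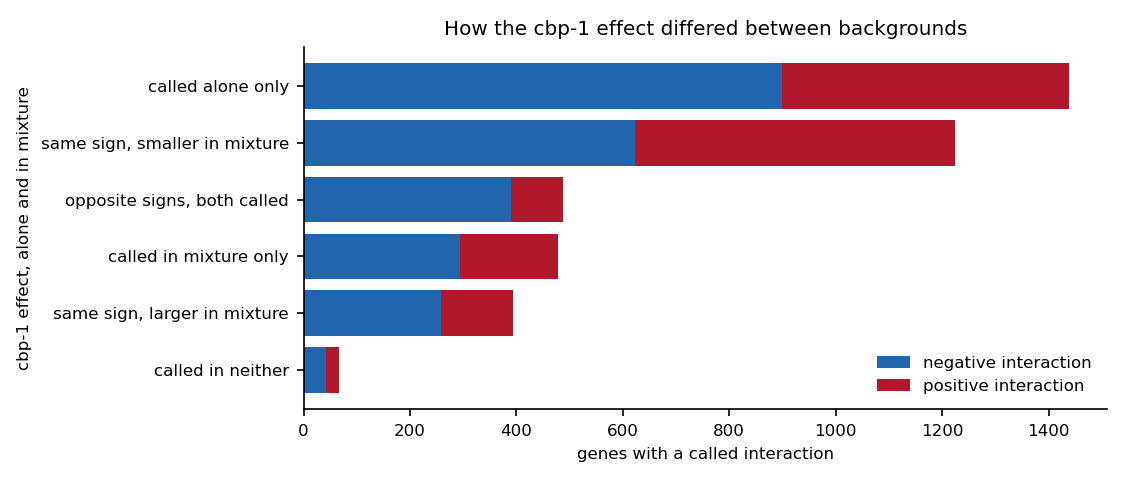
Bars give the number of genes with a called interaction by how the cbp-1 effect alone compared with the cbp-1 effect in the mixture, with negative interactions in blue and positive ones in red. The 2 longest bars, 1438 and 1224 genes, are effects that were called alone only or were smaller in the mixture.

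The genes furthest below the sum were mostly induced by each clone alone, and the mean of the mixture did not exceed that of the higher single group. F33H12.7 (chromosome II, 2586078 to 2586911, WBcel235) stood at 0.385, 0.535 and 0.457 CPM in ev, 11.2, 9.77 and 10.4 under cco-1, 12.7, 12 and 10.4 under cbp-1, and 10.2, 10.8 and 9.98 in the mixture. The 3 RNAi groups overlapped and all lay above ev. The sum of the single effects, 4.51 ± 0.17 for cco-1 and 4.67 ± 0.16 for cbp-1, corresponds to 266 CPM, and the interaction was -4.69 ± 0.20 (adjusted p = 1e-21). The cytochrome P450 gene cyp-13A5 (II, 9798277 to 9800362) rose by 2.98 under cco-1 and 2.96 under cbp-1, but fell by 1.30 when both were combined, relative to cco-1. Its levels were 2.03, 1.81 and 1.72 CPM in ev, 13.7, 15.6 and 14.6 under cco-1, 14.6, 14.3 and 14.5 under cbp-1, and 4.87, 6.8 and 6.13 in the mixture, so that the mixture lay between ev and both single groups without overlap. The interaction was -4.26 ± 0.14 (adjusted p = 9.99e-25). The cadmium-responsive gene cdr-4 (V, 12407366 to 12408625) was at 26, 23.5 and 24.8 CPM in ev, 420, 394 and 389 under cco-1, 151, 146 and 139 under cbp-1, and 246, 245 and 244 in the mixture. The mixture was below cco-1 alone, and the interaction was -3.26 ± 0.07 (adjusted p = 1.6e-30).

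Other strongly negative genes were dominated by one clone. F22B3.7 (IV, 11417581 to 11421796) was at 0.595, 0.329 and 0.305 CPM in ev, 38.3, 35 and 34.6 under cco-1, 0.213, 0.176 and 0.18 under cbp-1, and 1.5, 1.04 and 1.23 in the mixture. The mixture was far below cco-1 alone, with an interaction of -3.73 ± 0.55 (adjusted p = 1.22e-06). The P450 gene cyp-14A4 (X, 13282043 to 13284197) behaved alike: 1.65, 1.69 and 1.83 CPM in ev, 49.4, 50.2 and 48.8 under cco-1, 1.03, 1.41 and 1.44 under cbp-1, and 4.75, 4.93 and 5.24 in the mixture. The cbp-1 effect was -0.42 ± 0.16 alone and -3.31 ± 0.07 on cco-1, an interaction of -2.89 ± 0.19 (adjusted p = 9.24e-16). By contrast the carnitine palmitoyltransferase gene cpt-4, which belongs to the enzymes that move fatty acids into mitochondria, rose mainly with cbp-1: 2.28, 1.93 and 2.06 CPM in ev, 3.75, 4.06 and 3.94 under cco-1, 43, 42.2 and 45.4 under cbp-1, and 11.7, 11.5 and 11 in the mixture. Its cbp-1 rise was 4.37 ± 0.10 alone and 1.54 ± 0.10 on cco-1, an interaction of -2.83 ± 0.17 (adjusted p = 3.71e-17).

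Among the remaining negative genes of this rank, the interaction was -3.15 for T19C9.8 (single effects 1.47 for cco-1 and 3.49 for cbp-1), -2.95 for the UDP-glucuronosyltransferase gene ugt-36 (1.54 and 4.76), and -2.94 for the F-box gene C10C5.2 (current symbol fbxc-58; 1.58 and 3.63). It was -2.88 for Y75B8A.39 (2.75 and 6.14) and -2.75 for F15B9.6 (2.66 and 3.28). All 5 were higher in the mixture than in cco-1 alone, by less than cbp-1 added to ev. With the library-set term the cco-1 effect was not called for T19C9.8 (adjusted p = 0.0947), ugt-36 (0.192), Y75B8A.39 (0.234) or cpt-4 (0.215), while their interactions were called. T19C9.8 shares exon bases with T19C9.10 on the same strand. T01D3.6 (V, 13716824 to 13720414) is a case of a sign change at a higher level: 157, 178 and 169 CPM in ev, 411, 403 and 403 under cco-1, 347, 359 and 352 under cbp-1, and 125, 118 and 122 in the mixture. Each clone raised it, by 1.27 ± 0.04 and 1.07 ± 0.04, and their mixture was below every ev library, with an interaction of -2.81 ± 0.06 (adjusted p = 1.88e-32).

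**Figure D3:**
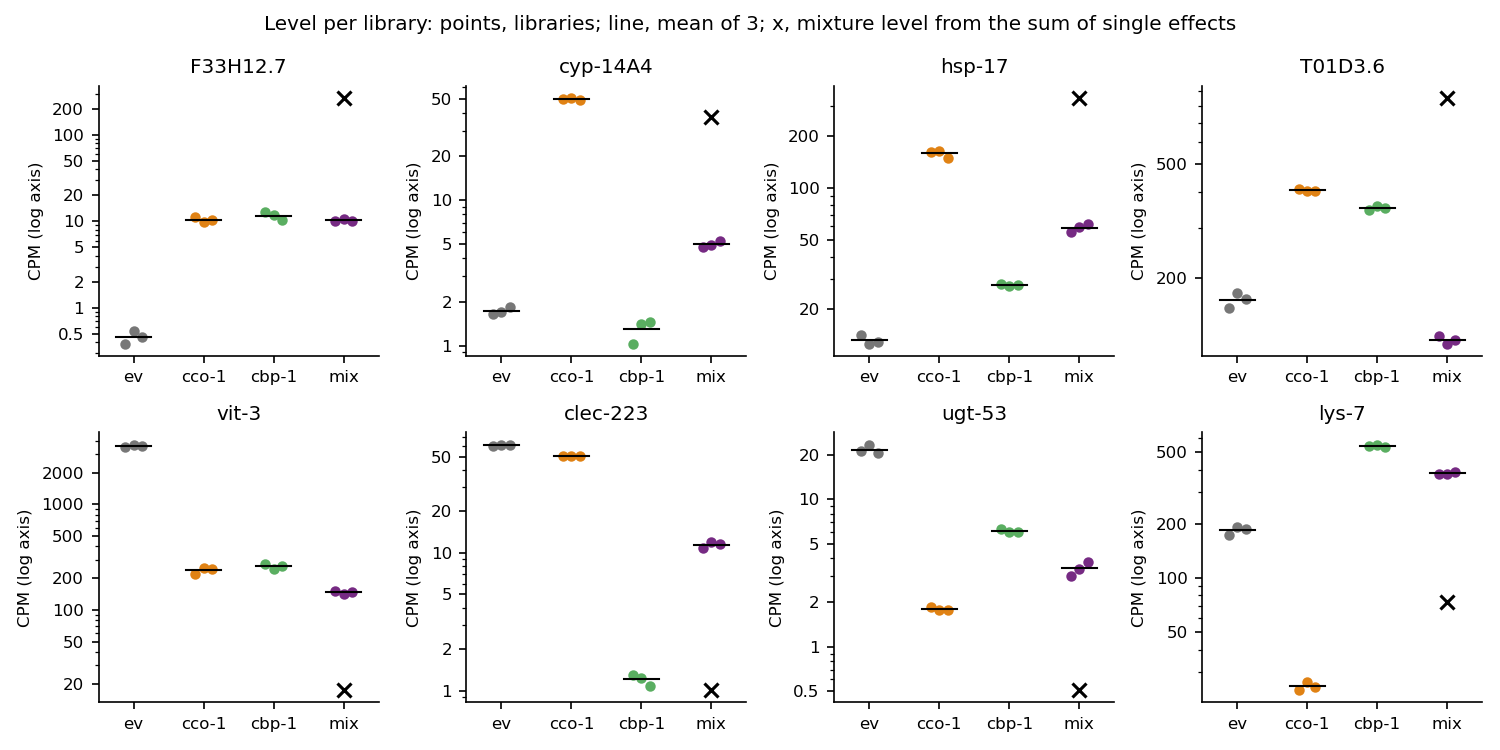
Levels in CPM (log axis) of 8 genes in the 12 libraries; points are libraries, lines are means of 3, and the cross is the mixture level given by the sum of the single effects. F33H12.7 stayed at 9.98 to 10.8 CPM where the sum gives 266, and vit-3 at 142 to 150 CPM where the sum gives 17.4.

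The genes furthest above the sum were mostly lowered by cbp-1 RNAi, and less so on cco-1 RNAi. The adjacent C-type lectin genes clec-223 and clec-222 on chromosome V (11273148 to 11278161 and 11271351 to 11272467), members of a family of secreted proteins known from responses to bacteria, moved together. Levels of clec-223 were 60, 60.9 and 61 CPM in ev, 50.7, 50.6 and 50.4 under cco-1, 1.31, 1.23 and 1.08 under cbp-1, and 10.8, 12 and 11.6 in the mixture. Those of clec-222 were 36.1, 34.3 and 31 in ev, 31, 31.5 and 29.7 under cco-1, 0.425, 0.598 and 0.396 under cbp-1, and 3.71, 4.13 and 3.71 in the mixture. In both genes the mixture lay between the cbp-1 libraries and the others. The cbp-1 effect of clec-223 was -5.64 ± 0.09 alone and -2.14 ± 0.06 on cco-1, an interaction of 3.50 ± 0.13 (adjusted p = 2.54e-23), and the interaction of clec-222 was 3.16 ± 0.18 (adjusted p = 3.06e-17). The cco-1 effects were -0.26 for clec-223 and -0.14 for clec-222. With the library-set term they were -0.44 and -0.08, the latter not called (adjusted p = 0.64). The cuticle collagen gene col-135 (cco-1 -0.85, or -1.31 with the library-set term; cbp-1 -4.76) and the aspartyl protease gene asp-12 (cco-1 0.07, or 0.14 with that term, neither called; cbp-1 -5.43) had the same form, with interactions of 2.79 ± 0.22 and 2.47 ± 0.29, the latter not called on the CPM scale (adjusted p = 0.663, limma).

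In a second form each clone alone lowered the gene, and the mixture was not as low as the sum. The acid sphingomyelinase gene asm-3 (IV, 520214 to 523809) was at 100, 106 and 105 CPM in ev, 4.6, 4.77 and 4.78 under cco-1, 5.86, 5.46 and 5.29 under cbp-1, and 2.79, 2.26 and 2.09 in the mixture. The mixture was the lowest group, yet above the 0.252 CPM of the sum, with single effects of -4.46 ± 0.07 for cco-1 and -4.22 ± 0.07 for cbp-1 and an interaction of 3.24 ± 0.16 (adjusted p = 3.08e-19). The short-chain dehydrogenase gene dhs-26, the thaumatin family gene thn-1 and clec-190 had interactions of 3.31 ± 0.54, 2.87 ± 0.50 and 3.01 ± 0.46. The single effects were -4.46 ± 0.16 for cco-1 and -4.64 ± 0.15 for cbp-1 in thn-1. They were unequal in dhs-26 (-4.24 ± 0.09 and -7.37 ± 0.12) and clec-190 (-2.75 ± 0.08 and -7.46 ± 0.14), where the cbp-1 value was further from 0. For these 3 genes the sum gives 0.0144, 0.0498 and 0.0277 CPM, below the 0.0891 to 0.0995 CPM that 3 counts stand for in a mixture library, so that a mixture at the sum could not have been measured. The same held for 49 of the 1582 positive genes (3.1%). It held for 0 of the negative ones, but a mixture below so low a sum could hardly have been called. ZK673.1 had an interaction of 2.45 ± 0.28, with single effects of -2.65 for cco-1 and -4.63 for cbp-1. The gene asm-3 overlaps W03G1.10 and dhs-26 overlaps ZK816.1, both on the other strand.

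Sign changes toward higher levels were seen in ugt-53 and K09C4.1. The gene ugt-53, of the family that attaches glucuronic acid or glucose to small molecules, was at 21.3, 23.5 and 20.7 CPM in ev, 1.87, 1.77 and 1.79 under cco-1, 6.29, 6.02 and 6.05 under cbp-1, and 3.03, 3.39 and 3.78 in the mixture. Each clone lowered it, and adding cbp-1 to cco-1 raised it by 0.90 ± 0.14, an interaction of 2.73 ± 0.16 (adjusted p = 8.76e-17). K09C4.1 changed by -3.33 with cco-1, -1.06 with cbp-1 and 1.59 with cbp-1 on cco-1, an interaction of 2.64 ± 0.16 (adjusted p = 4.37e-17).

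Mitochondrial stress genes responded to the mixture at or slightly below the sum. Of 12 genes for mitochondrial chaperones and proteases, 7 had a negative and 0 a positive interaction (58.3% negative against 15.2% of all genes), with a median of -0.22 against -0.01 for all genes. With cco-1, 11 of 12 rose; 7 fell and 3 rose with cbp-1 alone, and 8 fell when cbp-1 was added to cco-1. The chaperone gene hsp-6 was at 716, 750 and 713 CPM in ev, 1160, 1180 and 1210 under cco-1, 606, 583 and 586 under cbp-1, and 836, 846 and 836 in the mixture. The mixture lay between ev and cco-1 without overlap, and the sum gives 964 CPM. The single effects were 0.70 ± 0.05 for cco-1 and -0.30 ± 0.05 for cbp-1, the cbp-1 effect on cco-1 was -0.50 ± 0.05, and the interaction was -0.20 ± 0.07 (adjusted p = 0.0217). With the library-set term the cco-1 effect of hsp-6 was 0.40 (adjusted p = 2.67e-09). The interaction call of hsp-6 was lost without the first cbp-1 library (adjusted p = 0.051), without the third ev library (0.0532) and with DESeq2 (0.0647). For hsp-60 the interaction was -0.04 ± 0.17 (adjusted p = 0.891), with single effects of 0.79 for cco-1 and -0.64 for cbp-1, and its cco-1 effect was 0.05 (adjusted p = 0.691) with the library-set term. The DnaJ gene dnj-10 was at 72.1, 72.7 and 71.2 CPM in ev, 120, 118 and 113 under cco-1, 65.8, 64.4 and 68.5 under cbp-1, and 79.7, 85.3 and 86.2 in the mixture, an interaction of -0.37 ± 0.05 (adjusted p = 7.43e-07).

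Mitochondrial protein import genes showed the same arrangement. Of 11 tested, 10 rose with cco-1, 11 fell with cbp-1 alone and 11 fell with cbp-1 on cco-1. A negative interaction was called for 5 (45.5% against 15.2% of all genes) and a positive one for 0 (against 9.63%). The interaction was -0.29 ± 0.05 for tin-44, a motor subunit of the inner membrane translocase, and -0.34 ± 0.08 for tomm-20, a receptor of the outer membrane translocase. Among 12 regulators of the mitochondrial stress response, 1 was called: the transcription factor gene zip-2, known from defence against Pseudomonas, with -0.56 ± 0.05 and single effects of 0.15 for cco-1 (0.23 with the library-set term) and 1.87 for cbp-1. Of 66 mitochondrial ribosomal protein genes, 2 were positive and 3 negative, and of 45 nuclear genes of oxidative phosphorylation, 2 were positive and 3 negative, shares below those of all genes. In the former list 1 was negative without the second cco-1 library, and 1 was positive without the second cbp-1 library. In the latter list 1 was negative without the third mixture or second ev library, and 12 were positive when the 12 libraries were fitted alone.

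The cbp-1 homologs responded strongly. F40F12.7 (current symbol cbp-3) was at 11.2, 11.6 and 11.1 CPM in ev, 43.1, 43.7 and 40.1 under cco-1, 97.9, 96 and 95.7 under cbp-1, and 70.2, 72 and 75.1 in the mixture. It rose in all 3 RNAi groups, and the mixture fell short of the 361 CPM of the sum, with an interaction of -2.32 ± 0.07 (adjusted p = 2.89e-26). The homolog cbp-2 rose by 2.44 ± 0.06 alone and 2.14 ± 0.06 on cco-1, an interaction of -0.30 ± 0.08 (adjusted p = 0.00444), with a cco-1 effect of -0.07 (-0.27 with the library-set term) that was called in neither fit. Exons of cbp-2 and F40F12.7 overlap on the same strand, so that reads could be divided between them.

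Of 18 cytosolic heat shock genes tested, 4 had a negative interaction (22.2% against 15.2% of all genes) and 1 a positive one (5.56% against 9.63%), with a median of -0.11. With cco-1 alone 6 of them rose and 3 fell, and 9 fell and 3 rose with cbp-1 on cco-1. The positive call was lost without any of the cbp-1, cco-1, mixture or ev libraries apart from the third cbp-1, first cco-1, second mixture and the third ev library. The 3 members with the smallest adjusted p were small heat shock genes, whose products bind unfolded proteins, and each was higher under cco-1 than in the mixture. The gene hsp-17 was at 14.2, 12.6 and 12.9 CPM in ev, 161, 164 and 150 under cco-1, 27.9, 27.2 and 27.7 under cbp-1, and 55.9, 59.6 and 61.9 in the mixture. The cbp-1 clone raised it alone (1.06 ± 0.07) and lowered it on cco-1 (-1.42 ± 0.06), an interaction of -2.48 ± 0.09 (adjusted p = 2.15e-19). For hsp-16.2 the levels were 0.875, 1.11 and 0.839 CPM in ev, 16.6, 13.8 and 15.3 under cco-1, 1.25, 0.986 and 1.08 under cbp-1, and 3, 3.86 and 3.48 in the mixture. Its interaction of -2.39 ± 0.23 (adjusted p = 9.57e-11) stood beside -1.998 ± 0.27 for its neighbour hsp-16.41, and for both the cbp-1 effect alone was not called (0.25 and -0.07). On the CPM scale hsp-16.41 was just outside the threshold (adjusted p = 0.0512, limma). These genes have close paralogs, which can affect how reads are assigned, and hsp-17 overlaps F52E1.14 on the other strand.

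All 6 vitellogenin genes, which encode the yolk proteins that the intestine supplies to oocytes, lay above the sum. Each of them fell with cco-1, with cbp-1 and with cbp-1 on cco-1, and their interactions ranged from 0.98 ± 0.06 for vit-2 to 3.07 ± 0.07 for vit-3, with a median of 2.15 (6 of 6 positive against 9.63% of all genes). Levels of vit-3 were 3460, 3670 and 3540 CPM in ev, 219, 251 and 246 under cco-1, 273, 243 and 263 under cbp-1, and 150, 142 and 148 in the mixture. The mixture was the lowest group but stood above the 17.4 CPM of the sum, with single effects of -3.90 ± 0.06 and -3.78 ± 0.06. Levels of vit-1 were 8180, 8810 and 8380 CPM in ev, 1270, 1500 and 1450 under cco-1, 1450, 1310 and 1370 under cbp-1, and 1130, 1090 and 1130 in the mixture. Both single groups overlapped, and the cbp-1 effect was -2.62 ± 0.06 alone and -0.33 ± 0.05 on cco-1. Summed over the 6 genes, the level was 79200 to 82300 CPM in ev, 28100 to 30900 under cco-1, 16800 to 18300 under cbp-1 and 15900 to 16200 in the mixture. Several vitellogenin genes are near copies of each other, so their separate values are less certain than the sum, and vit-3 overlaps T27A10.8 and vit-4 overlaps F59D8.3 on the other strand. In whole worms, fewer cells of a type and less RNA per cell cannot be told apart, here and for every group below.

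Genes of propionate breakdown with acdh-1, the vitamin B12-independent route through an acyl-CoA dehydrogenase, were also above the sum. Of 12 tested, 9 were positive (75% against 9.63% of all genes) and 0 negative (against 15.2%), with a median of 0.42. Of these 12 genes, 8 fell with cco-1, 9 with cbp-1 and 7 with cbp-1 on cco-1. Y38F1A.6 (current symbol hphd-1), a transhydrogenase of this route, was at 234, 236 and 231 CPM in ev, 102, 107 and 108 under cco-1, 57.7, 54.6 and 54.1 under cbp-1, and 54.3, 54.2 and 55.9 in the mixture. The mixture thus overlapped cbp-1 alone, and the interaction was 1.13 ± 0.07 (adjusted p = 1.24e-15). The interaction was 0.77 ± 0.05 for the enoyl-CoA hydratase gene ech-6 and 1.04 ± 0.11 for nhr-68, a nuclear hormone receptor known to activate this route.

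In lipid metabolism both directions occurred. Among 28 acyl-CoA synthetases and carnitine palmitoyltransferases 13 were negative (46.4%) and 6 positive (21.4%). The acyl-CoA synthetase gene acs-2, a marker of fasting and fatty acid oxidation, was at 12.3, 9.3 and 11.2 CPM in ev, 156, 143 and 155 under cco-1, 31.3, 38.1 and 33.5 under cbp-1, and 116, 116 and 112 in the mixture. Its interaction was -2.04 ± 0.11 (adjusted p = 1.39e-13), with a rise of 1.64 under cbp-1 alone and -0.40 on cco-1. Among 16 desaturases and elongases 7 were positive and 5 negative; the stearoyl-CoA desaturase gene fat-6 had -0.66 ± 0.05 (cco-1 -0.31, cbp-1 0.39, cbp-1 on cco-1 -0.26), and fat-3 had 0.53 ± 0.07 (-0.20, -1.20 and -0.67), with a cco-1 effect of -0.48 when the library-set term was included. The lysosomal lipase gene lipl-3 fell with cco-1 (-4.84 ± 0.29), rose with cbp-1 (0.90 ± 0.12) and rose by 4.23 ± 0.31 with cbp-1 on cco-1, an interaction of 3.34 ± 0.37 (adjusted p = 2.84e-09). Its levels were 4.59, 3.66 and 3.96 CPM in ev, 0.039, 0.118 and 0.246 under cco-1, 7.62, 7.39 and 7.85 under cbp-1, and 3.09, 2.2 and 2.79 in the mixture. The cco-1 libraries were thus close to 0, and on the CPM scale, where the sum is a sum of differences in level, the value was -0.993 (adjusted p = 0.0375, limma), the opposite sign. Of 27 tricarboxylic acid and glyoxylate cycle genes 4 were negative (14.8%) and 2 positive (7.41%), shares below the 15.2% and 9.63% of all genes, although 5 were positive when the 12 libraries were fitted alone. The smallest adjusted p was that of icl-1, the glyoxylate cycle enzyme, with -1.04 ± 0.07 (cco-1 0.91, cbp-1 1.48).

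Among detoxification families, the cytochrome P450 and glutathione transferase genes leaned to values below the sum. Over all genes, 15.2% were negative and 9.63% positive. Of 69 cytochrome P450 genes 25 were negative (36.2%) and 9 positive (13%); cyp-33C8, with single effects of 4.31 for cco-1 and 1.42 for cbp-1, had -1.62 ± 0.07 (adjusted p = 2.75e-22). Of 47 glutathione transferase genes 15 were negative (31.9%) and 1 positive. Levels of gst-20 were 20.9, 22.3 and 23 CPM in ev, 17.3, 16.6 and 16.4 under cco-1, 157, 158 and 163 under cbp-1, and 45.8, 44.2 and 43.9 in the mixture, an interaction of -1.44 ± 0.08 (adjusted p = 4.37e-17). Those of gsto-1 were 14.5, 15.1 and 15 in ev, 53.8, 54.6 and 53.8 under cco-1, 10.9, 10.7 and 9.15 under cbp-1, and 11.1, 11.4 and 10.4 in the mixture. In the mixture gst-20 was far below cbp-1 alone, and gsto-1 was below ev although cco-1 alone raised it, the latter with an interaction of -1.77 ± 0.09 (adjusted p = 3.2e-19); gsto-1 overlaps kle-2 on the other strand. The 63 UDP-glucuronosyltransferase genes were divided, with 16 positive (25.4%) and 17 negative (27%), both above the shares of all genes, and a median of 0.06. The most certain negative ones were ugt-62 (-1.66 ± 0.06), ugt-19 (-2.55 ± 0.10) and ugt-16 (-2.13 ± 0.10), all raised by each clone alone and lowered by cbp-1 on cco-1.

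Immune and gut genes were divided as well. Of 156 C-type lectin genes 36 were positive (23.1% against 9.63% of all genes) and 33 negative (21.2% against 15.2%). With a filter of 5 CPM in 3 libraries, which removes low-count genes before the test, 23 were positive. Beside the pair on chromosome V, clec-166 changed sign (cco-1 -1.91, cbp-1 -1.28, cbp-1 on cco-1 1.01; interaction 2.30 ± 0.11), and clec-66 changed sign the other way (1.86, 0.61 and -1.60; interaction -2.21 ± 0.09). Of 39 genes for lysozymes, saposins and thaumatins 13 were positive (33.3%) and 8 negative (20.5%). The lysozyme gene lys-7, known from defence against bacteria, was at 173, 192 and 187 CPM in ev, 23.8, 26.4 and 24.9 under cco-1, 539, 549 and 535 under cbp-1, and 378, 380 and 388 in the mixture. It was lower than ev under cco-1 and higher than ev in the mixture, with no overlap. The cbp-1 effect was 1.56 ± 0.04 alone and 3.93 ± 0.05 on cco-1, an interaction of 2.37 ± 0.06 (adjusted p = 7.3e-28). As differences in level, however, the cbp-1 effects were nearly equal, and on the CPM scale the value was -0.654 (adjusted p = 0.975, limma). The cathepsin B-like protease gene cpr-1 had an interaction of 1.62 ± 0.07 on the log2 scale and of -1923 CPM on the CPM scale (adjusted p = 2.24e-15), with levels of 887, 873 and 885 CPM in ev, 94.6, 109 and 103 under cco-1, 4180, 4210 and 4230 under cbp-1, and 1570, 1430 and 1500 in the mixture. Its relative cco-1 decrease was smaller with cbp-1, and its absolute cbp-1 increase was smaller with cco-1. Of 22 such gut protease genes 9 were positive and 6 negative.

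The pals genes, known from the response to intracellular pathogens, rose with cbp-1 in either background: 30 of 34 alone and 28 on cco-1, with median effects of 3.55 and 3.61. The interaction was negative for 10 of 34 (29.4% against 15.2% of all genes) and positive for 1 (2.94% against 9.63%). With the filter of 5 CPM, which removes low-count genes before the test, 6 were negative. C17H1.7 (current symbol pals-6) was at 0.875, 1.07 and 1.33 CPM in ev, 4.64, 5.6 and 5.38 under cco-1, 79, 79.3 and 79.5 under cbp-1, and 61.5, 67.4 and 64.2 in the mixture, an interaction of -2.55 ± 0.16 (adjusted p = 3.67e-16). Of 169 fbxa F-box genes 34 were negative (20.1%) and 4 positive (2.37%). Under the filter of 5 CPM 15 were negative.

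Of 162 cuticle collagen genes 64 were negative (39.5% against 15.2% of all genes) and 19 positive (11.7% against 9.63%), with a median of -0.30. The number of positive ones was 12 without the first or second cbp-1 library, the third ev library or the first mixture library, and 30 without a filter on low counts. The collagen genes with the smallest adjusted p were positive: col-101 (1.00 ± 0.06), dpy-14 (1.48 ± 0.13) and dpy-17 (1.14 ± 0.12), each lowered by cbp-1 by over 2 on the log2 scale alone and by less on cco-1 (-1.39, -0.71 and -0.89). Of 76 molting cycle genes 16 were negative (21.1%) and 5 positive (3 without the first cbp-1 library); the ground-like gene grl-21 was at 3.36, 3.83 and 4.19 CPM in ev, 6.75, 6.86 and 6.65 under cco-1, 13.3, 16.6 and 13.8 under cbp-1, and 6.19, 4.99 and 5.97 in the mixture, an interaction of -2.19 ± 0.15 (adjusted p = 3.4e-15). Of 198 nuclear hormone receptor genes 36 were negative (18.2%, near the share of all genes) and 8 positive (4.04%). Among the negative ones was nhr-8, a receptor known from resistance to toxins, with -1.19 ± 0.10 (cco-1 1.32, cbp-1 0.32). Of 130 neuropeptide and insulin-like genes 11 were negative (8.46%) and 4 positive (3.08%), shares below those of all genes. The number of positive ones was 2 without the third cbp-1 library. The gene nlp-28, which belongs to a cluster of antimicrobial peptide genes of the epidermis, had -2.15 ± 0.18 (cco-1 0.68, cbp-1 2.65).

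Markers of the germ line and its products were not alike. Of 69 sperm markers tested 51 had a negative interaction (73.9% against 15.2% of all genes) and 1 a positive one (1.45% against 9.63%). Their median was -0.59. Alone, cbp-1 raised 42 and lowered 1 of them, and on cco-1 it raised 1 and lowered 40. Their summed level was 922 to 966 CPM in ev, 938 to 1030 under cco-1, 1120 to 1140 under cbp-1 and 773 to 796 in the mixture, so that cbp-1 libraries were the highest and mixture libraries the lowest. The major sperm protein gene msp-38 had -0.87 ± 0.10 and the phosphatase gene gsp-3 -0.72 ± 0.09. Major sperm protein genes are near copies of each other, and 11 of the 80 markers on the list, tested or not, had a count of 0 in at least 1 of the 12 libraries. Of 41 genes of the RNA interference pathway 3 were negative (7.32%) and 1 positive (2.44%), shares below those of all genes, with a median of 0.02; among the negative ones were alg-3 and alg-4, which act in sperm formation, with -0.69 ± 0.08 and -0.69 ± 0.07. In that list 5 were negative without the first cco-1 or the second mixture library, and 8 were positive when the 12 libraries were fitted alone. Of 21 germline markers 0 were called, with summed levels of 8420 to 8550 CPM in ev, 8370 to 8750 under cco-1, 7520 to 7800 under cbp-1 and 7740 to 7920 in the mixture. Up to 3 positive and 2 negative ones were called in other settings.

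Of all genes tested, 15.2% were negative and 9.63% positive. The share of other tissues' markers with an interaction was 0 negative and 1 positive (4.55%) of 22 for muscle. For oocytes and early embryos it was 3 positive (15%) and 0 negative of 20. It was 4 negative of 24 (16.7%) for neurons, near the share of all genes. For the intestine it was 6 negative (37.5%) and 3 positive (18.8%) of 16, and for the hypodermis 5 negative (31.2%) and 3 positive (18.8%) of 16. These counts are small and changed with single libraries. The oocyte count was 1 without the second or the third cbp-1, the second cco-1, the first or the third mixture or the second ev library. The muscle call was lost without any library other than the third cbp-1 or second cco-1. The neuron count was 2 without the second ev library, and the hypodermis had 3 negative ones without the second cbp-1, the third cco-1, the first mixture or the first ev library and 1 positive one without the second cco-1 library. Summed muscle marker levels were 13500 to 13700 CPM in ev, 12800 to 13500 under cco-1, 11500 to 12100 under cbp-1 and 11500 to 11800 in the mixture. The defining markers of all these tissues were detected in all 12 libraries, apart from ftn-1 of the intestine list, which was at 0 in 1 of them. The part of any tissue's share in the interactions was not tested. Among housekeeping groups, 1 of 82 cytosolic ribosomal protein genes was positive and 0 negative, although 72 fell with cco-1 and 79 with cbp-1; 0 to 2 were positive with 1 library left out, and 35 when the 12 libraries were fitted alone. Of 33 proteasome genes 1 was negative, lost without the first cco-1 or second mixture library, and 0 positive.

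**Figure D4:**
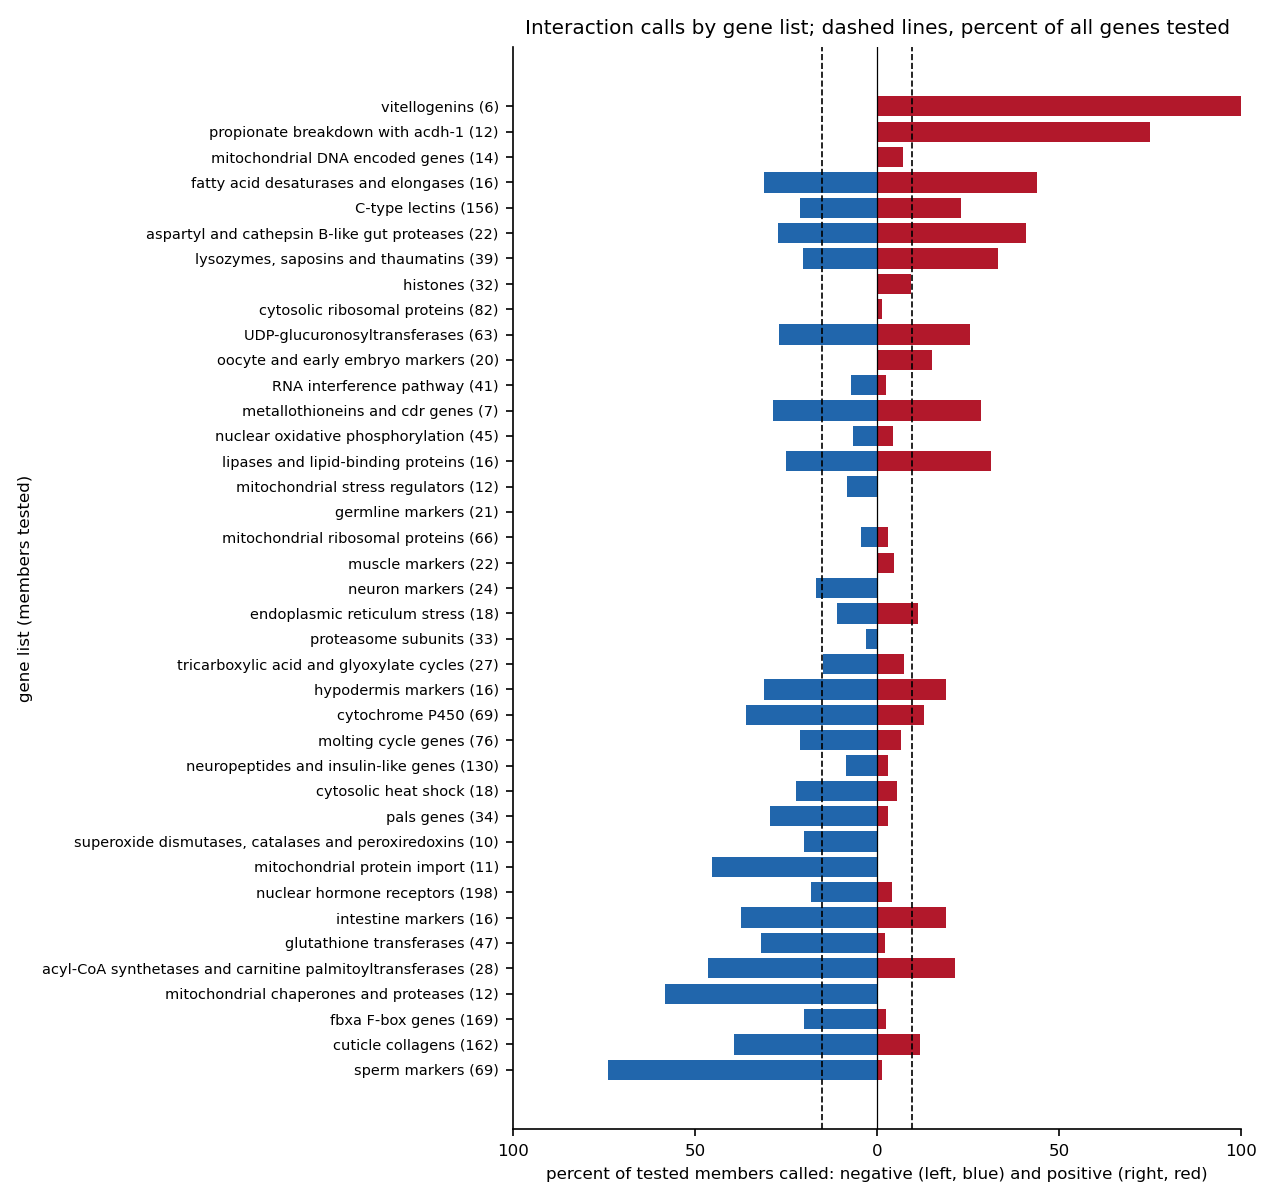
Percent of tested members with a negative (left, blue) or positive (right, red) interaction for lists with at least 6 tested members, ordered by their median interaction; dashed lines mark all genes tested, 15.2% and 9.63%. Sperm markers (73.9% negative) and vitellogenins (6 of 6 positive) lie at the ends.

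The X chromosome held a larger share of positive interactions than the autosomes. Of 2267 genes tested on X, 411 (18.1%) were positive and 247 (10.9%) negative, whereas the positive share on chromosomes I to V was between 7.04% (III) and 9.44% (II) and the negative share between 13.5% (III) and 18.7% (IV). The median interaction was 0.06 on X, between -0.0396 (V) and -0.0018 (I) on the autosomes, and -0.01 over all genes. The median cbp-1 effect of X genes was -0.14 alone and -0.08 on cco-1. The number of positive X genes was 344 to 557 across the other fits and 339 to 380 with 1 library left out. The vitellogenin genes vit-1, vit-3 and vit-4, dhs-26 and K09C4.1 are on X.

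A second mitochondrial arm of the series, with RNAi of the mitochondrial ribosomal protein gene mrps-5, was treated in the same way. It shares its ev and cbp-1 libraries with the cco-1 arm, so that the 2 interactions are given side by side and only their direct difference, the cbp-1 effect on cco-1 minus that on mrps-5, was tested. The mrps-5 interaction was called for 3875 genes (23.6%), 1334 positive (8.12%) and 2541 negative (15.5%). The direct test called 902 genes (5.49%), with 588 higher (3.58%) and 314 lower (1.91%) on cco-1. The genes described above were chosen by their interaction in the cco-1 arm, which shares the cco-1 and mixture libraries with this difference. That choice favours values further from 0 with cco-1 than with mrps-5, so that their differences are given as a description and a count of them supports nothing. T19C9.8 had -3.15 ± 0.17 with cco-1 and -0.44 ± 0.19 with mrps-5, a difference of -2.71 ± 0.17 (adjusted p = 1.15e-15), and F33H12.7 had -4.69 and -1.53, a difference of -3.16 ± 0.18 (adjusted p = 9.96e-17). In the opposite order, cyp-14A4 had -2.89 with cco-1 and -4.09 with mrps-5, a difference of 1.20 ± 0.12 (adjusted p = 9.64e-10). The lysozyme gene lys-7 had 2.37 and 0.47, a difference of 1.90 ± 0.07 (adjusted p = 8.12e-24), and hsp-16.2 had -2.39 and -0.70, a difference of -1.69 ± 0.22 (adjusted p = 6.11e-07). For cyp-13A5 the values were -4.26 and -4.05 (difference -0.21 ± 0.15, adjusted p = 0.583). The vitellogenins were 6 of 6 positive in each arm, and 2 of them, vit-1 and vit-3, were higher on cco-1. None of the sperm markers (0 of 69) passed the direct test, with medians of -0.59 and -0.44 and 37 negative with mrps-5. Several other families leaned the same way with mrps-5. Negative there were 73 of 162 cuticle collagen genes (median -0.48), 27 of 69 cytochrome P450 genes and 18 of 47 glutathione transferase genes. Of the 12 propionate breakdown genes 8 were positive with mrps-5. Fewer were negative than with cco-1 among mitochondrial chaperones and proteases (4 of 12) and fbxa genes (22 of 169). On X, 13.7% of genes were positive with mrps-5.

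**Figure D5:**
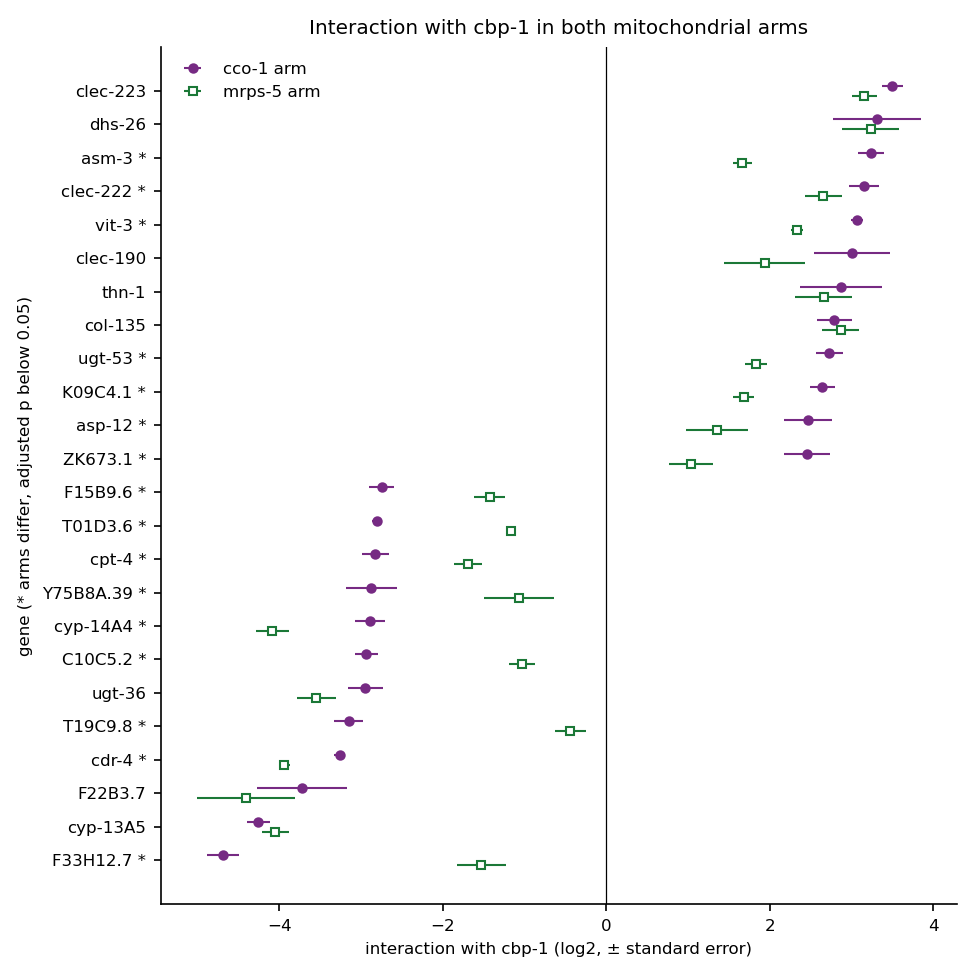
Interaction with cbp-1 (log2 ± SE) of the 12 most positive and 12 most negative genes of the cco-1 arm (filled circles) and the same genes in the mrps-5 arm (open squares); asterisks mark the 16 genes past the direct test. The genes were chosen by the cco-1 arm, a choice that favours values further from 0 there. F33H12.7, T19C9.8 and C10C5.2 were nearer to 0 with mrps-5, and cyp-14A4 and cdr-4 further from 0.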

How the data were processed

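Poly(A) RNA of whole worms was sequenced, and the authors deposited raw counts of reads per gene in 1 table with a column per library. The submitters' processing notes name STAR 2.6.0a, HTSeq 0.10.0 and WBcel235; other settings are not given in the sources used here. Summary lines of the counter (8.71 to 16.1% of reads in the 12 libraries) were left out. Genes passed edgeR's filterByExpr with a minimum count of 10 (16435 of 46738). TMM factors, a robust quasi-likelihood fit (edgeR 4.0.16, R 4.3.3) with a coefficient for each of 9 groups over 27 libraries, and contrasts gave log2 fold changes; SE is the size of the log2 value divided by the square root of F. CPM values are TMM-scaled and not divided by length. Calls are at an adjusted p below 0.05. Annotation is Ensembl's for WBcel235. Alternatives used DESeq2 1.42.0, limma 3.58.1 (CPM scale), other factors and filters, and left-out libraries. On simulated counts (16370 genes) the test recovered 91% of 100 interactions of 1.5-fold and 99% of 100 of 2-fold, with 4.52% false among calls. These interactions were placed only in genes with a mean of at least 5 CPM, so recovery at lower levels was not measured. The other genes were set at the sum, and libraries were drawn independently within each group. The false share therefore does not cover a difference in cbp-1 dose or libraries that vary technically only.

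Genes were named by rule: both targets with hsp-6 and hsp-60; the 12 most positive and 12 most negative called interactions with a mean of at least 5 CPM over the 12 libraries; the 5 largest with opposite called cbp-1 effects; and up to 3 called members with the smallest adjusted p in each of 40 gene lists. Other members of a list (vit-2) are named as the end of a range, chosen after values were seen. The comparison, lists and genes were chosen with earlier results of these data known, so that no pattern here is independent support. Sequences were not used here.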

Additional observations from a re-analysis of the deposited data

Results flagged for a closer look

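Of the 24 genes furthest from the sum of the single effects with cco-1, 16 passed the direct test of the difference between the mitochondrial arms, as did 5.49% of all genes (edgeR's quasi-likelihood test, Benjamini-Hochberg adjusted over all genes), given as the cbp-1 effect on cco-1 minus that on mrps-5. The 24 genes were chosen by the cco-1 interaction, which shares the cco-1 and mixture libraries with this difference, so that the choice favours values further from 0 with cco-1 and the count is not evidence that these genes differ more often than others. Among genes with a negative interaction the difference was -3.16 for F33H12.7, -2.71 for T19C9.8, -1.91 for C10C5.2, -1.81 for Y75B8A.39, -1.65 for T01D3.6, -1.32 for F15B9.6 and -1.14 for cpt-4. It was positive for cyp-14A4 (1.20) and cdr-4 (0.67), which lay further below the sum with mrps-5. Among genes with a positive interaction it was 1.57 for asm-3, 1.41 for ZK673.1, 1.12 for asp-12, 0.96 for K09C4.1, 0.90 for ugt-53, 0.74 for vit-3 and 0.50 for clec-222, each further above the sum with cco-1. The ev and cbp-1 libraries do not enter this difference, and both mixtures held 25% cbp-1 bacteria by the labels.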

How the results depend on the processing

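The 4088 interaction calls became 3825 with DESeq2, 4959 with a library-set term, 5326 with the 12 libraries alone, 3129 with the filter of 5 CPM in 3 libraries and 4274 on the CPM scale, and 912 with a size of at least 1. Under all of these except the CPM scale, every called gene that had a value kept its sign; on the CPM scale 98.3% did, and 39 genes were called with the opposite sign. Leaving out 1 library gave 3548 to 3877 interaction calls, 6514 to 6791 for cco-1 against ev, 8938 to 9085 for cbp-1 against ev, 6980 to 7103 for the mixture against cco-1, 6922 to 7226 against cbp-1, 9164 to 9345 against ev, 3257 to 3622 for the mrps-5 interaction and 715 to 863 for the direct test. The library-set term, which rests on 1 atfs-1 library, changed comparisons that cross the sets: 2691 calls in place of 7449 for cco-1 against ev, 2065 in place of 7832 for the mixture against cbp-1, and 5948 in place of 9863 for the mixture against ev. On the CPM scale the interaction reversed for cco-1 (26.5, adjusted p = 0.527), lipl-3 (-0.993), lys-7 (-0.654) and cpr-1 (-1923), where the sum itself is defined differently. The cbp-1 effects called alone only numbered 813 with the filter of 5 CPM in place of 1438. That filter left 3075 of the 4088 called genes in the test, so lower counts under it include genes that were not tested. Replicate numbers did not pair libraries: deviations of same-numbered libraries correlated at -0.035 to 0.0246, and a fit with the replicate number as a block called 4060 genes, 4008 of them shared. Lists with few calls depend most on the setting: positive cytosolic ribosomal protein genes ranged from 0 to 35, and negative glutathione transferases were 23 on the CPM scale. Depth limits genes with few counts: summed over 3 libraries, the lowest group held 11 counts for lipl-3, 12 for Y75B8A.39, 14 for dhs-26, 17 for F22B3.7 and for clec-190, and 24 for asp-12, with standard errors of the interaction of 0.37, 0.31, 0.54, 0.55, 0.46 and 0.29.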
